A study of Arabidopsis thaliana with 27 samples.

Results

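Leaves of well-watered *Arabidopsis thaliana* plants carrying *GC::AtTOR* were compared directly with leaves of well-watered plants carrying *35S::AtTOR*. Both constructs add a copy of *TOR*, the gene of the target of rapamycin kinase. They differ in the promoter, which is a guard-cell promoter taken from tobacco in *GC::AtTOR* and the constitutive viral 35S promoter in *35S::AtTOR*. The members were the 3 *GC::AtTOR* and the 3 *35S::AtTOR* samples labelled well-watered, 6 of the 27 samples in the series, and the 17819 of 34218 listed genes with a mean of at least 10 normalized counts in either group. The remaining samples were WT leaves and leaves of the 3 genotypes after 11 days without water (drought) or after 4 days of re-watering. Soil of well-watered plants was held near 60% of its water capacity. The sample labels name 1 batch for all samples, and they do not say which homozygous line or which plants each sample came from, so p-values measure the spread between samples only. That spread was estimated over all 27 samples, within the 9 groups of genotype and treatment. WT is Col-0. Water was withheld from 27 to 38 days after germination, and the day on which well-watered leaves were taken is not given in the sources used here.

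TOR is a large protein kinase that couples nutrient and energy supply to translation and growth. In leaves it is connected to abscisic acid (ABA), the hormone that closes stomata when water is short, because TOR and the ABA receptors act on each other. Guard cells, which open and close the stomatal pore, are a small part of the cells in a leaf, and the RNA measured here came from whole leaves. Fewer cells of a type and less RNA per cell cannot be told apart in such samples.

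The deposited values are counts that the authors divided by a size factor per sample. They came out as whole reads in all samples and add up to 11724034 to 14636861 reads per *GC::AtTOR* sample and 13540257 to 15472545 per *35S::AtTOR* sample. *GC::AtTOR* replicates 1 and 2 were more alike than any other pair of replicates in the series, with a mean chi-square of 2.15 per gene between their reads. The next of the 27 pairs had 4.0, and replicate 3 of *GC::AtTOR* had 35.2 and 30.2 against replicates 1 and 2. The 3 samples were counted as 3, as labelled, since 2.15 is above the value of 1 that sampling noise alone gives. Separate libraries of 1 RNA pool can also exceed 1, so this does not show that replicates 1 and 2 came from different plants. Results that move when replicates 1 and 2 are averaged into 1 sample, or when replicate 3 is left out, are given with those values.

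A gene was called a differentially expressed gene (DEG) when limma's adjusted p, by Benjamini-Hochberg over all 17819 genes, was under 0.05 and its log2 fold change, *GC::AtTOR* minus *35S::AtTOR* on log2(normalized count + 1), was past 1 in either direction. There were 320 DEGs higher in *GC::AtTOR*, 1.8% of the genes tested, and 110 lower, 0.617%. The higher DEGs had a median log2 fold change of 2.05 and 80 of them were past 8-fold, while the lower DEGs had a median of -1.25 with 7 past 8-fold. The median over all genes tested was 0.00266. With *GC::AtTOR* replicates 1 and 2 averaged, 140 genes were higher, 0.785%, and 54 lower, 0.303%. Without *GC::AtTOR* replicate 3, 354 were higher, 1.99%, and 201 lower, 1.13%. Of the 320 higher DEGs, 89 were called in each of the 6 fits with 1 of the 6 samples left out and also in the averaged fit, as were 33 of the 110 lower DEGs. Many of the higher DEGs had low counts, and 31 of them were under 1 normalized count in every *35S::AtTOR* sample.

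**Figure D1:**
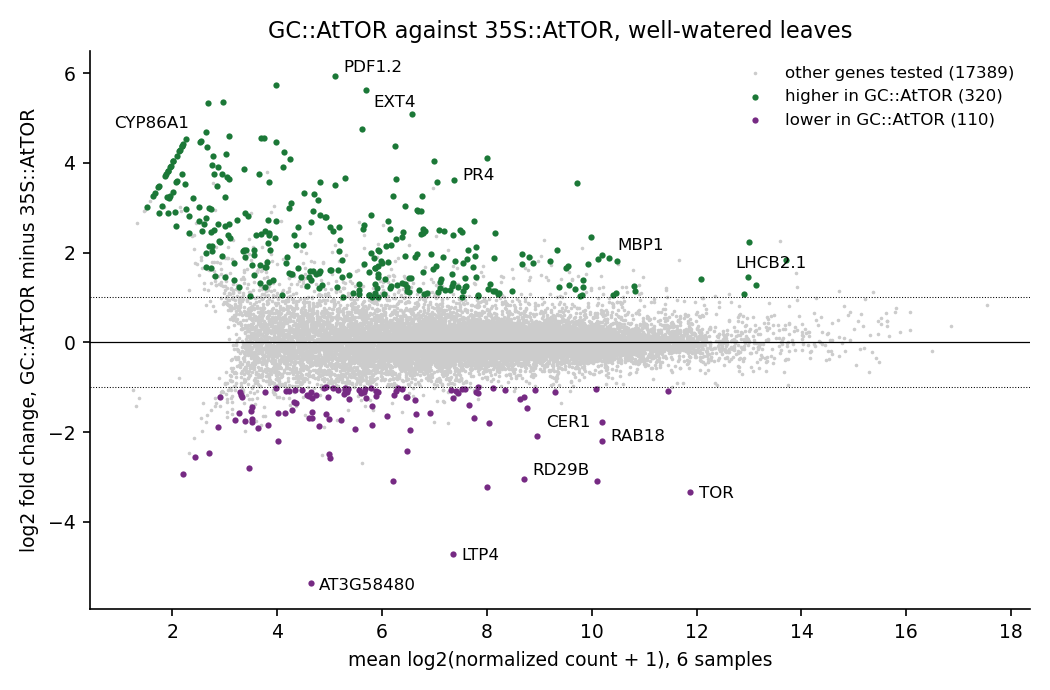
Log2 fold change, *GC::AtTOR* minus *35S::AtTOR*, of each of the 17819 genes tested (vertical axis) against its mean log2(normalized count + 1) over the 6 samples (horizontal axis). Green points are the 320 DEGs higher in *GC::AtTOR*, purple points the 110 lower, and dotted lines mark a log2 fold change of 1 and -1; *TOR*, *LTP4* and AT3G58480 lie farthest down and *PDF1.2* farthest up.

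The promoters of some of the genes described in the results that follow are shown first. Each one shown holds the motif marked, and those of other genes described, such as *LTP3* and *PR4*, are not shown. ACGTG is the core of the ABA-responsive element bound by ABF/AREB factors, and GCCGCC is the GCC box bound by ethylene-response factors. Windows of 250 bases before the annotated start were searched on both strands in RefSeq's TAIR10.1 annotation, and the authors named TAIR10 as their build. Below are the stretches that hold the motif, 5′ to 3′ on the gene's strand, with each ACGTG or GCCGCC, on either strand, in capitals. *RD29B*, *RAB18* and *MGL* were lower DEGs.
RD29B (chr5:21236853-21237020, plus strand): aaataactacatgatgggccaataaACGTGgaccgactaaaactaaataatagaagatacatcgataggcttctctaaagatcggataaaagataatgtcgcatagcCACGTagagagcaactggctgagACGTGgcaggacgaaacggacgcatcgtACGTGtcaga
RAB18 (chr5:26519448-26519635, minus strand): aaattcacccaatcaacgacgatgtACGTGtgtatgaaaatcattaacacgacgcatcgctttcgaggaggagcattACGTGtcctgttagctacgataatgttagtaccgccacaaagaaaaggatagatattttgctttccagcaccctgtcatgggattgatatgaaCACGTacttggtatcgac
MGL (chr1:24028580-24028785, plus strand): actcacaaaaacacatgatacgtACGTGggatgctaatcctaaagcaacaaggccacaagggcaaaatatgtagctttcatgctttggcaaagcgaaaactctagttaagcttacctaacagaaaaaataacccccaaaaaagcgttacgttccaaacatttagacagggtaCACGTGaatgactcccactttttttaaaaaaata
The ACGTG cores of *RD29B* began 143, 61, 38 and 10 bases before its start, and the window of *RAB18* also overlaps the neighbouring gene AT5G66410. In *MGL* the pair at 78 and 77 bases before the start is the same CACGTG palindrome read on both strands. *PDF1.2*, *ERF11* and *ZAT6* were higher DEGs with a GCC box.
PDF1.2 (chr5:17907828-17907885, minus strand): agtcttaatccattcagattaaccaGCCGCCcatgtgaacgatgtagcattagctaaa
ERF11 (chr1:9956981-9957033, minus strand): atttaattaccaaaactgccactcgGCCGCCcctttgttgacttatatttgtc
ZAT6 (chr5:1217371-1217428, minus strand): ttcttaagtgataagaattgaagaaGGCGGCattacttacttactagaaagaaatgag
These boxes began 222, 28 and 41 bases before the respective starts. Across all DEGs, the ACGTG core stood in 31.6% of 313 promoters of higher DEGs and 20.2% of 104 promoters of lower DEGs, beside 23.3% of 17493 promoters of genes tested and 22.9% of all 27443. GCCGCC stood in 5.11% of the higher and 0.962% of the lower DEGs, beside 1.94% of genes tested and 1.87% of all promoters. ACGTG was thus less frequent in lower DEGs than in genes tested, and *RD29B*, *RAB18* and *MGL* do not stand for that group. The longer matches ACGTGTC and ACGTGGC were also searched. They stood in 7.69% and 2.88% of lower DEGs, 4.79% and 3.83% of higher DEGs, and 4.28% and 4.01% of genes tested. The shares are descriptions with no test, and a match is not evidence of binding.

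*TOR* itself (AT1G50030) separated the constructs in every sample. *GC::AtTOR* leaves had 1254, 1164 and 1144 normalized counts of it, against 12857, 9229 and 14649 in leaves of *35S::AtTOR* (log2 fold change -3.34, SE 0.165, adjusted p = 2.61e-11 by limma). WT leaves had 1250, 1205 and 1128, so the *GC::AtTOR* and WT groups overlapped. Whole-leaf *TOR* in *GC::AtTOR* differed from WT by -0.01 on the log2 scale (adjusted p = 0.988), and the table does not tell reads of the transgene from those of the endogenous gene. The other genes of the TOR complex and its S6 kinase branch were not DEGs. Of 11 tested, *TOR* was the only one called, *RAPTOR1*, which binds substrates for the kinase, had a log2 fold change of -0.25, and *S6K1*, a kinase that TOR phosphorylates, had 0.01. Translation genes were also close together. None of 21 cytosolic ribosomal protein genes was called (median 0.06), nor any of 10 nucleolar ribosome biogenesis genes, all of which were below 0 with a median of -0.23.

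Guard-cell genes held no DEG. Of 14 mature guard cell genes tested 6 were above 0 and 8 below, with a median log2 fold change of -0.16. *KAT1*, an inward potassium channel, had 205, 228 and 477 normalized counts in *GC::AtTOR*, against 264, 367 and 442 in the other line, so the groups overlapped. *GORK*, the outward potassium channel that acts in closure, had 166, 159 and 152 against 290, 276 and 248, and the groups did not overlap, but its log2 fold change of -0.76 (adjusted p = 0.034 by limma) did not reach the floor of 1. *TGG1*, a myrosinase of guard cells and phloem idioblasts, had 30645, 28457 and 20736 against 13072, 9125 and 6030, groups that did not overlap, and missed the threshold (1.55, adjusted p = 0.0522). The list's summed level ran from 33683 to 42328 in *GC::AtTOR*, against 21035 to 27011 in the other line. *TGG1* alone made up most of each *GC::AtTOR* sum, so the sums do not show the direction of the other genes. WT sums of 26607, 45152 and 33869 overlapped with those of both lines. None of 8 stomatal development genes tested was called (median -0.13), while the other 8 of the list, among them *SPCH* and *MUTE*, which start and advance the stomatal lineage, were below the count minimum.

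**Figure D2:**
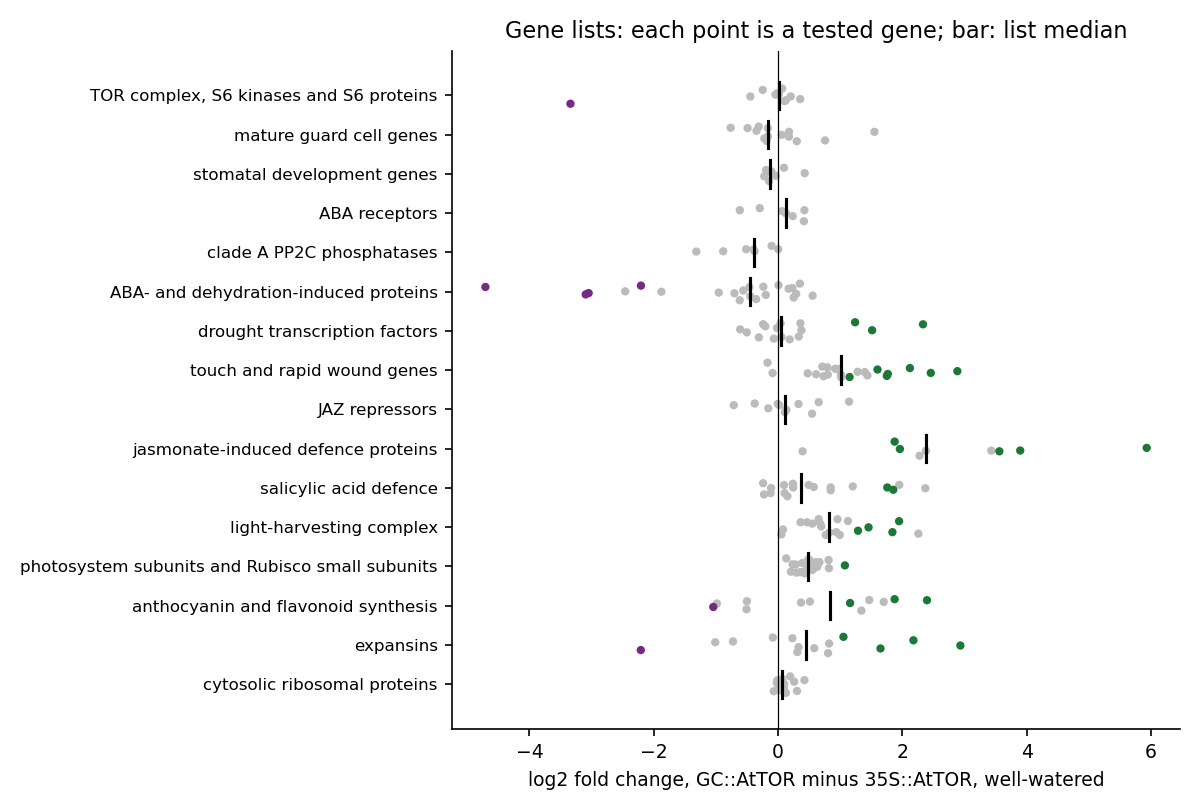
Log2 fold change, *GC::AtTOR* minus *35S::AtTOR* in well-watered leaves (horizontal axis), of each tested gene of 16 gene lists (vertical axis). Green points are DEGs higher in *GC::AtTOR*, purple points DEGs lower, grey points genes not called, and the bar is the list's median, which is 2.38 for jasmonate-induced defence proteins and -0.45 for ABA- and dehydration-induced proteins.

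Genes that ABA switches on were among the DEGs with the lowest log2 fold change. *RD29B* (AT5G52300), a hydrophilic protein gene that is a standard reporter of ABA, stood at 64.6, 198 and 234 normalized counts in *GC::AtTOR*, against 1300, 1315 and 1012 in *35S::AtTOR*. Every *35S::AtTOR* sample was above every *GC::AtTOR* sample (log2 fold change -3.05, SE 0.542, adjusted p = 0.00175). *RAB18* (AT5G66400), a dehydrin, stood at 603, 746 and 365 against 3629, 2244 and 1988 (-2.21, SE 0.482, adjusted p = 0.00799). In WT, *RD29B* had 87.1, 104 and 244 and *RAB18* 551, 582 and 728, so for both genes the *GC::AtTOR* leaves were near WT and the *35S::AtTOR* leaves above it (3.19, adjusted p = 0.0015, and 2.04, adjusted p = 0.0113, over WT).

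Lipid transfer protein genes, whose small secreted products bind lipids at the cell surface, followed the same order of groups. *LTP3* (AT5G59320) had 219, 521 and 468 normalized counts in *GC::AtTOR*, against 4224, 3123 and 2544 (-3.1, SE 0.426, adjusted p = 0.000161). *LTP4* (AT5G59310) had 20.3, 39.5 and 37.3 against 1604, 1004 and 364 (-4.71, SE 0.683, adjusted p = 0.000252). As neighbouring paralogs these 2 genes may share reads. WT had 12.2, 9.34 and 39.7 for *LTP4*. The related genes AT2G37870 (-3.09) and AT4G33550 (-2.43) were also among the 15 lower DEGs selected for naming. That selection took only DEGs whose groups did not overlap. The lack of overlap in *RD29B*, *RAB18*, *LTP3*, *LTP4* and these genes was thus fixed by it. Others in that selection were *DAA1*, an AAA ATPase gene with 56, 79 and 131 counts against 818, 809 and 732 (-3.22), *MGL*, methionine gamma-lyase, which degrades methionine, with 50.2, 41.9 and 46 against 224, 149 and 176 (-1.95), and AT2G41190, an amino acid transporter family gene (-1.77). Each of the genes named in this and the preceding paragraph was called in all 6 fits with a sample left out and in the averaged fit.

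Most genes of the ABA pathway were not called. Of 22 ABA- and dehydration-induced genes tested 4 were lower DEGs, *RD29B*, *RAB18*, *LTP3* and *LTP4*, none was higher, 15 of 22 were below 0 and the median was -0.45. Among all genes tested 0.617% were lower DEGs and 1.8% higher. *RD29A*, which responds to cold and drought as well as ABA, had a log2 fold change of -0.35 (adjusted p = 0.291) and *KIN2* 0.56 (adjusted p = 0.2). *RD22* had 10675, 11184 and 7918 against 23462, 17027 and 17215, groups that did not overlap, with a log2 fold change of -0.95 (adjusted p = 0.00194) just short of the floor. The count of lower DEGs in this list was 5 with replicates 1 and 2 averaged, 5 without *GC::AtTOR* replicate 3, and 6 with samples scaled to equal totals. None of 7 ABA receptors (median 0.13) and none of 7 clade A PP2C phosphatases, which ABA-bound receptors inhibit (median -0.39, 6 of 7 below 0), was called. *NCED3*, the drought-induced enzyme of ABA synthesis, had a log2 fold change of -0.06. *CYP707A1*, an ABA 8′-hydroxylase that breaks ABA down, was lower, at 60.8, 63.5 and 48.2 against 150, 135 and 83.4 (-1.05, adjusted p = 0.0176), but missed the threshold in 3 of the 7 fits with a sample left out or averaged, with -0.93 without *GC::AtTOR* replicate 3. *BGLU18*, a glucosidase that frees ABA from its glucose ester, was higher in *GC::AtTOR*, at 6219, 6412 and 8832 against 2233, 3587 and 2331 (1.41, adjusted p = 0.0324), and was called in 1 of those 7 fits. With the 6 samples of the 2 groups fitted alone, the adjusted p was 0.0556 for *CYP707A1* and 0.0252 for *BGLU18*.

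**Figure D3:**
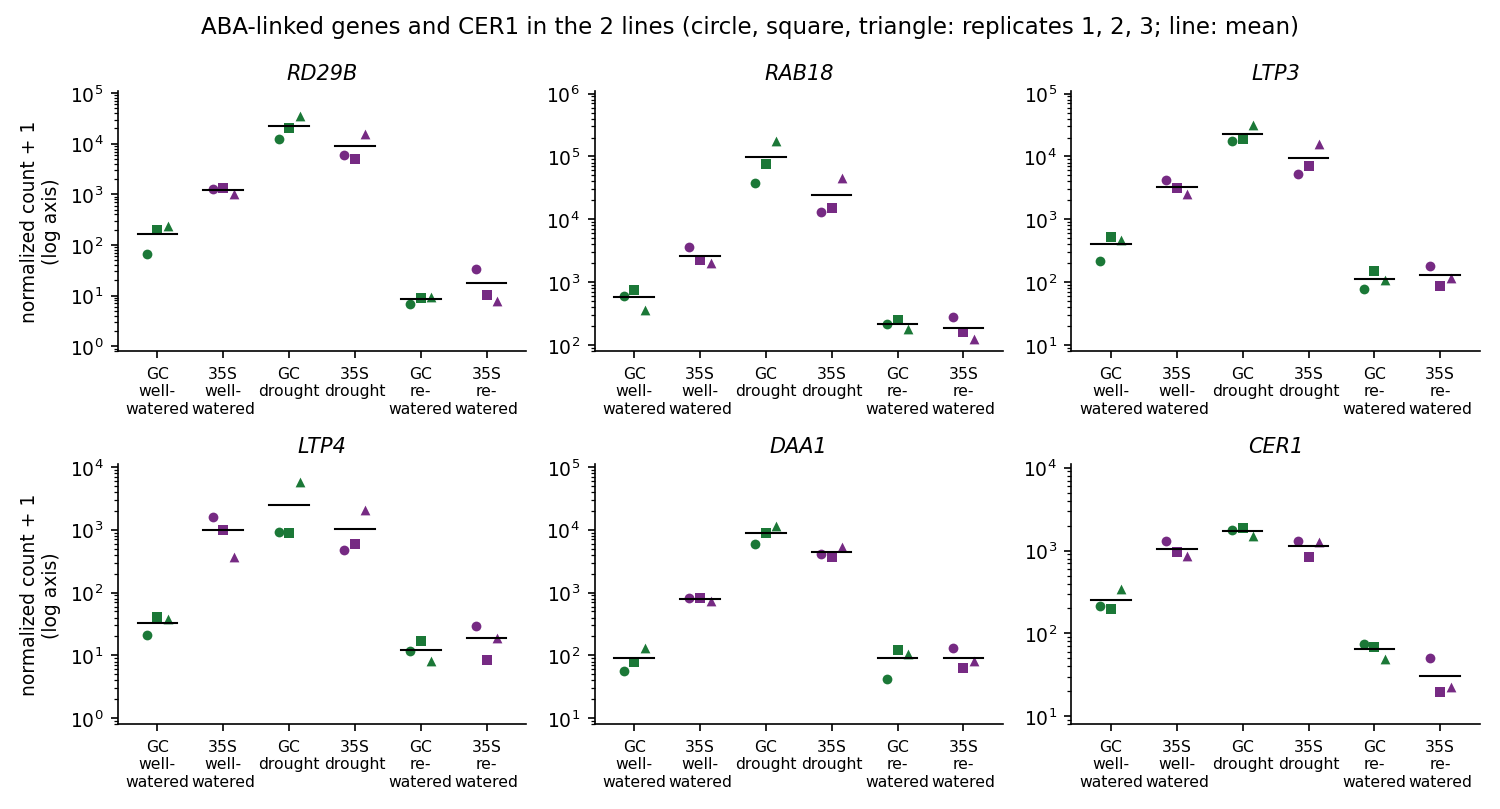
Normalized counts plus 1 on a log axis of *RD29B*, *RAB18*, *LTP3*, *LTP4*, *DAA1* and *CER1* in each *GC::AtTOR* (green) and *35S::AtTOR* (purple) sample of the 3 water treatments, with a line at the group mean. In well-watered leaves all *35S::AtTOR* points lie above all *GC::AtTOR* points in each panel, while under drought *RD29B* ran from 12446 to 35828 in *GC::AtTOR*, against 5068 to 15593.

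Among genes of the leaf surface, *CER1*, which makes the alkanes of cuticular wax, and *WSD1*, a wax ester synthase, were lower in *GC::AtTOR*. *CER1* stood at 211, 195 and 342 normalized counts in *GC::AtTOR*, against 1289, 966 and 865 (-2.08, SE 0.296, adjusted p = 0.000219). WT had 544, 1087 and 836, so here the *35S::AtTOR* leaves were near WT and the *GC::AtTOR* leaves below it (-1.71 against WT, adjusted p = 0.0058). *WSD1* had 12.5, 12 and 12.1 against 104, 83.5 and 53.3 (-2.57, adjusted p = 0.00168), and both genes were called in all 7 fits. In a list of 9 wax genes put together after the values were seen, 8 were tested, these 2 were called and 7 of 8 were below 0. *CUT1*, a very-long-chain fatty acid elongase gene, had 3532, 3658 and 3216 against 5411, 5257 and 5162 and did not reach the fold floor (-0.61, adjusted p = 0.000228). The epidermis markers, of which *CUT1* is also 1, had a summed level of 10317 to 10577 in *GC::AtTOR*, against 13280 to 16938, with none of 5 tested called. Their part in the wax values was not tested. Other lower DEGs of that selection were AT3G14360, an alpha/beta-hydrolase gene (-1.85), AT1G69760 (-1.79) and *NUDT24*, a nudix hydrolase gene (-1.68), of which *NUDT24* was called in none of the 7 fits.

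Among the 15 higher DEGs selected for naming were several genes known from plant defence. *PDF1.2* (AT5G44420), the antifungal defensin that jasmonate and ethylene switch on together, stood at 148, 166 and 775 normalized counts in *GC::AtTOR*, against 2.01, 9.18 and 1.78 (log2 fold change 5.93, SE 0.884, adjusted p = 0.00033). Its close family members may share reads with it. *PR4* (AT3G04720), a chitin-binding hevein-like protein gene induced by ethylene, stood at 540, 534 and 665 against 49.2, 51.8 and 39.1 (3.61, SE 0.491, adjusted p = 0.000161). The groups were far apart in both genes, and WT lay between them, with 107, 21 and 58.2 for *PDF1.2* and 223, 149 and 186 for *PR4*. *35S::AtTOR* was below WT for both (-3.57, adjusted p = 0.0141, and -1.97, adjusted p = 0.0146), while *GC::AtTOR* did not differ from WT past the threshold (2.37, adjusted p = 0.177, and 1.64, adjusted p = 0.095).

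The same order, with *GC::AtTOR* highest, WT between and *35S::AtTOR* lowest, was seen in the group means of several other genes of that selection. The legume lectin genes AT3G16530, at 370, 353 and 318 against 11, 32.6 and 10.7, and AT3G15356, at 551, 538 and 463 against 20.1, 33.4 and 42.6, had log2 fold changes of 4.37 and 4.03. The methyltransferase gene AT1G15125 stood at 1164, 1105 and 939 against 36.1, 66 and 95.9 (4.1, adjusted p = 2.64e-06). The thionin gene AT1G66100, a small antimicrobial peptide gene, stood at 277, 224 and 318 against 24.1, 19.2 and 19.5 (3.63, adjusted p = 0.000677). AT3G23550, a MATE efflux gene, stood at 119, 103 and 123 against 1, 0.835 and 1.78 (5.73, adjusted p = 2.64e-06). The selection took only DEGs whose groups did not overlap, so the lack of overlap in these genes was fixed by it. Each of these genes was called in all 7 fits.

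Genes of the jasmonate wound response were also higher in *GC::AtTOR* than in *35S::AtTOR*. In *MBP1* the order of groups was another, with WT below *35S::AtTOR*. *MBP1* and *MBP2* encode myrosinase-binding proteins of the glucosinolate defence and are paralogs that may share reads. *MBP1* had 2545, 2571 and 2281 normalized counts in *GC::AtTOR*, against 409, 876 and 839 for *35S::AtTOR* and 139, 178 and 327 for WT (1.88 over *35S::AtTOR*, adjusted p = 0.00503). *MBP2* had 60.8, 49.1 and 93.1 against 3.01, 5.01 and 2.66 (3.9, adjusted p = 0.000252). *NATA1*, an acetyltransferase that modifies ornithine after wounding, had 503, 479 and 381 against 84.3, 45.1 and 13.3 (3.56, adjusted p = 0.0109), and *JR1*, a jacalin lectin gene, 696, 663 and 1121 against 228, 229 and 167 (1.96, adjusted p = 0.0128). *JAL23*, another jacalin lectin gene that was named after its values were seen, had 259, 268 and 257 against 34.1, 58.4 and 45.3 (2.52, adjusted p = 0.00646). In each of these genes the lowest *GC::AtTOR* sample was above the highest *35S::AtTOR* sample.

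Of 9 jasmonate-induced defence genes tested, 5 were higher DEGs, *PDF1.2*, *MBP1*, *MBP2*, *NATA1* and *JR1*, all 9 were above 0, and the median was 2.38. Among all genes tested 1.8% were higher DEGs. The count stayed at 5 with replicates 1 and 2 averaged and without *GC::AtTOR* replicate 3. Without *35S::AtTOR* replicate 3, however, *NATA1* and *JR1* lost the call, while *PDF1.2*, *MBP1* and *MBP2* kept it. *VSP1* and *VSP2*, vegetative storage proteins that are standard jasmonate markers, had 332, 281 and 738 against 52.2, 39.2 and 24.9 and 3163, 3016 and 1360 against 781, 478 and 246, but did not pass the test (adjusted p = 0.141 and 0.162). The upstream parts of the pathway were not called. None of 11 *JAZ* repressor genes, whose products hold jasmonate responses back, was a DEG (median 0.11), nor was any of 11 genes of jasmonate synthesis and turnover (median 0.44). Of these synthesis and turnover genes 9 were above 0. Their summed level was 87944, 85447 and 60304 in *GC::AtTOR*, against 46536, 49249 and 42454 for *35S::AtTOR* and 39834, 41928 and 40821 for WT. *MYC2*, the main jasmonate transcription factor, is listed at 0 in all 27 samples and gives no information here. Of 18 salicylic acid defence genes 2 were higher DEGs, *CBP60G*, a regulator of salicylic acid synthesis, and *ALD1*, an aminotransferase of pipecolic acid synthesis (1.85 and 1.76), and none with replicates 1 and 2 averaged.

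**Figure D4:**
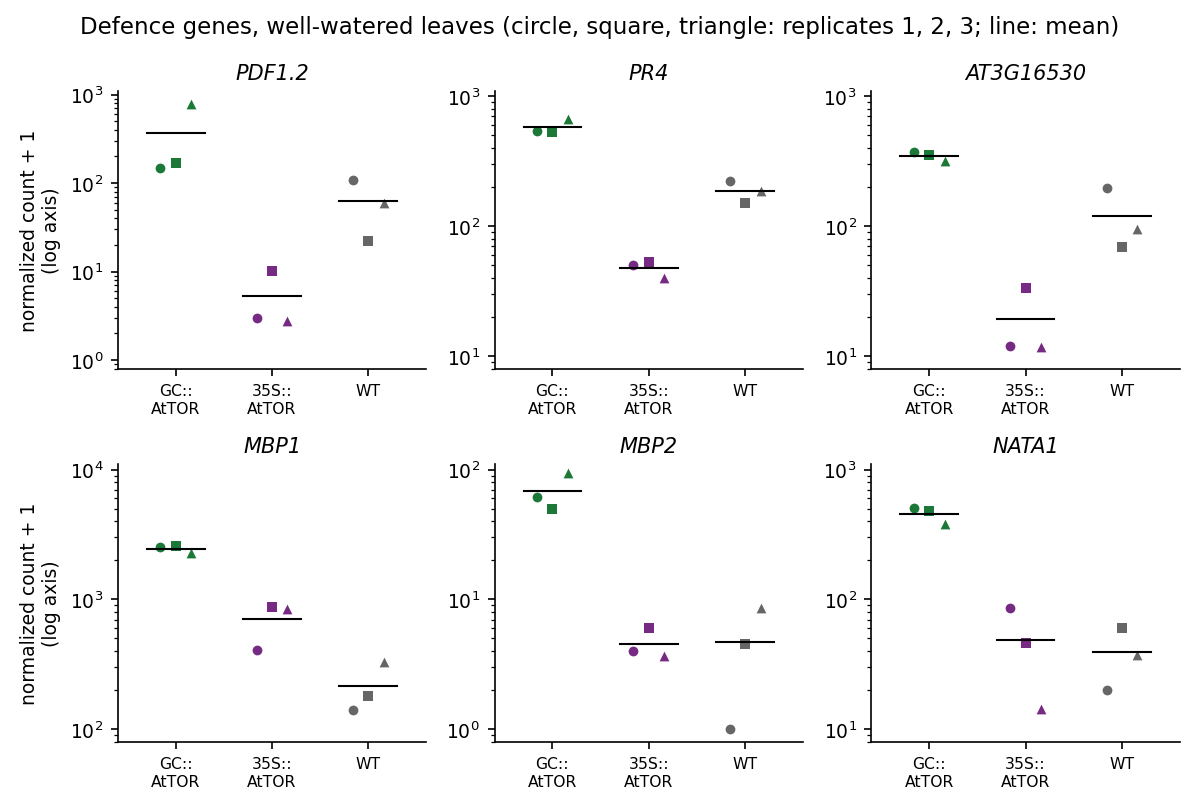
Normalized counts plus 1 on a log axis of *PDF1.2*, *PR4*, AT3G16530, *MBP1*, *MBP2* and *NATA1* in each well-watered sample of *GC::AtTOR* (green), *35S::AtTOR* (purple) and WT (grey), with a line at the group mean. In each panel the *GC::AtTOR* points lie above the *35S::AtTOR* points; WT means lie between the lines' means in the upper row, and WT points lie below the *35S::AtTOR* points of *MBP1*.

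Several other genes of the selection varied among the *GC::AtTOR* samples or depended on 1 sample of either line. *GER3*, a germin-like protein gene, had 161, 156 and 6692 normalized counts in *GC::AtTOR*, against 10, 15 and 24 for *35S::AtTOR* and 660, 3150 and 1843 in WT. Its log2 fold change of 5.08 (adjusted p = 0.0407) was called in none of the 7 fits with a sample left out or averaged, and was 3.28 without *GC::AtTOR* replicate 3. AT3G16670 had the same replicate far above the others, at 36.7, 35.9 and 340 against 7.02, 3.34 and 1.78, and was not called without it (adjusted p = 0.0506). In the opposite pattern, AT1G14250, a nucleoside phosphatase gene, had 4271, 4022 and 1397 against 331, 313 and 145 (3.54) and *CYP82G1*, the enzyme that makes the homoterpene volatile TMTT, 180, 201 and 74.5 against 21.1, 31.7 and 0.888 (3.66). Both lost the call with replicates 1 and 2 averaged (adjusted p = 0.0909 and 0.102). They also lost it without *35S::AtTOR* replicate 3, where AT1G14250 had a log2 fold change of 3.16 (adjusted p = 0.102) and *CYP82G1* 2.39 (adjusted p = 0.176). *EXT4*, a cell wall extensin gene, kept it, at 466, 450 and 220 against 2.01, 23.4 and 4.44 (5.61, adjusted p = 0.00843), as did *PELPK1*, a proline-rich wall protein gene, at 458, 410 and 86.6 against 10, 15.9 and 3.55 (4.75, adjusted p = 0.00195). *GSTU4*, a glutathione transferase gene, had 119, 133 and 57 against 5.02, 7.51 and 9.76 (3.57, adjusted p = 0.000342).

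Touch and rapid wound genes respond to handling within minutes, and their summed level was lowest in replicate 3 of each line. Of 23 tested, 7 were higher DEGs, *ZAT12*, *ZAT6*, *ZAT11*, *ERF11*, *BAP1*, *CML37* and *CML23*, and the median was 1.01. The share called higher among all genes tested was 1.8%. *CML37*, a calmodulin-like calcium sensor gene, had 738, 789 and 138 normalized counts against 91.3, 144 and 35.5 (2.46, adjusted p = 0.0159), so the groups overlapped. *ZAT6*, a zinc finger repressor gene, had 3175, 3391 and 1860 against 1307, 1356 and 1031 (1.15, adjusted p = 0.00466), and the groups did not overlap. The summed level of the list was 80361, 77315 and 32544 in *GC::AtTOR*, against 45145, 41341 and 21815 for *35S::AtTOR* and 17736, 21147 and 18549 for WT. The number of DEGs in it was 9 without *GC::AtTOR* replicate 3 and 2 with replicates 1 and 2 averaged. *CBF2*, a cold-response factor gene that touch also induces, was higher at 382, 433 and 183 against 83.3, 113 and 74.6 (1.8, adjusted p = 0.006), in all 7 fits. Of 16 drought transcription factor genes *DREB2A* (1.24), *NAC019* (1.51) and *NAC055* (2.33) were higher DEGs, and none of the list was with replicates 1 and 2 averaged. With the 6 samples of the 2 groups fitted alone, *DREB2A* (adjusted p = 0.119), *NAC055* (0.0811) and *ZAT12* (0.076) were not called, while *NAC019* (0.0348) was. Of 11 stomata and ABA genes that the study itself picked on these samples, *RDUF1*, a ubiquitin ligase of drought responses, was higher (1899, 1930 and 678 against 453, 508 and 313, log2 fold change 1.7) and *CYP707A1* lower. *RDUF1* was not called with replicates 1 and 2 averaged (adjusted p = 0.0507) or with the 6 samples fitted alone (adjusted p = 0.0627).

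Genes of suberin, the lipid polymer that seals root endodermis and wounded tissue, were found among the DEGs that had almost no counts in *35S::AtTOR*, and the list described here was put together after the values were seen. *CYP86A1*, a fatty acid hydroxylase, had 92.6, 104 and 2.19 normalized counts in *GC::AtTOR*, against 0, 0.835 and 0 for *35S::AtTOR* and 0, 1.17 and 1.69 in WT (adjusted p = 0.0125). *GPAT5*, an acyltransferase that forms suberin monomers, had 22.2, 18 and 5.48 and was listed at 0 in all 6 samples of the other groups (adjusted p = 0.00291). *ASFT*, which adds ferulate to suberin, had 135, 114 and 27.4 against 4.01, 5.84 and 0.888 (4.25, adjusted p = 0.00481). Replicate 3 was the lowest *GC::AtTOR* sample in each of these genes, yet above every *35S::AtTOR* sample. *FAR4* (28, 34.7 and 3.29), a fatty acyl reductase, and *ABCG6* (38.6, 46.7 and 5.48), a transporter of suberin monomers, were listed at 0 in all *35S::AtTOR* samples (adjusted p = 0.00988 and 0.00868), as was *CYP86B1* (15.4, 23.9 and 1.1, adjusted p = 0.0317). *FAR5* differed in being high in replicate 3 too, at 38.6, 35.9 and 49.3 against 0, 4.17 and 0 (4.6, adjusted p = 0.0327). Each of these 7 genes passed the count minimum through the *GC::AtTOR* samples alone, so the number called among them was set by that choice and is no support for the list. Of the other 7 genes in the list, *FAR1* and *ABCG20* were tested and not called, and 5 were below the minimum. With replicates 1 and 2 averaged, *GPAT5* and *ASFT* were still called. The root markers *PYK10*, *CASP1*, *PLT2*, *IRT1*, *COBL9* and *HAK5* summed to at most 1.1 in *GC::AtTOR*, 0.888 in *35S::AtTOR* and 2.34 in WT.

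**Figure D5:**
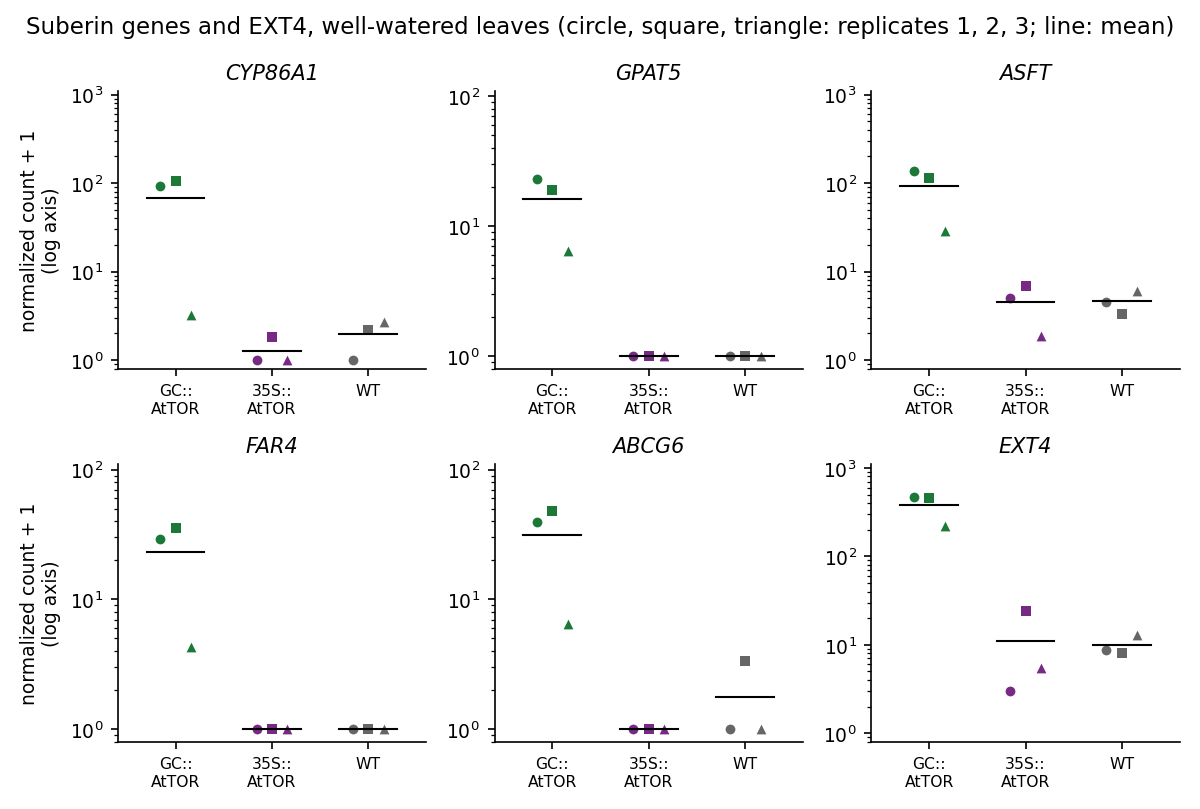
Normalized counts plus 1 on a log axis of *CYP86A1*, *GPAT5*, *ASFT*, *FAR4*, *ABCG6* and *EXT4* in each well-watered sample of *GC::AtTOR* (green), *35S::AtTOR* (purple) and WT (grey), with a line at the group mean. *GC::AtTOR* replicates 1 and 2 (circle, square) lie close together and high, replicate 3 (triangle) is the lowest green point in each panel, and points at 1 are genes listed at 0.

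Genes of the light reactions lay above 0 throughout, with list medians under the fold floor of 1. Of 19 light-harvesting complex genes tested 4 were higher DEGs, *CAB2*, *LHCB2.1*, *LHCB2.2* and *LHCB2.3*, antenna proteins of the photosystems, and all 19 had log2 fold changes above 0, with a median of 0.83. Over all genes tested 8967 of 17819 were above 0 and 1.8% were higher DEGs. *LHCB2.1* had 13955, 13780 and 14238 normalized counts against 7265, 5854 and 4434 in *35S::AtTOR* and 14785, 23664 and 18710 in WT (1.29 over *35S::AtTOR*, SE 0.234, adjusted p = 0.002), so *35S::AtTOR* was the group apart (-1.71 against WT, adjusted p = 0.000207). *CAB2* had 20309, 21450 and 36502 against 9597, 7220 and 5001 (1.84, adjusted p = 0.0325). These genes have near-identical copies (*CAB1* to *CAB3*, and *LHCB2.1* with *LHCB2.2*), and reads may be split between them. The list's summed level ran from 845039 to 925617 in *GC::AtTOR*, against 443836 to 613322 for *35S::AtTOR* and from 881500 to 1107039 in WT. All 24 photosystem and Rubisco small subunit genes were above 0 as well (median 0.47), with *PSAN*, a photosystem I subunit, the single DEG (1.08, adjusted p = 0.029). With replicates 1 and 2 averaged, *LHCB2.1* was the only DEG left in either list.

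Vascular markers held no DEG. All 4 phloem markers were below 0 (median -0.51), with a summed level of 4779 to 5724 in *GC::AtTOR*, against 7236 to 7715, which did not overlap. Of 5 xylem markers 4 were below 0 (median -0.7), and their sums of 271, 242 and 447 overlapped with the 543, 423 and 422 of *35S::AtTOR*. None of 5 dividing cell markers was called (median 0.3), and the floral genes *AP1* and *LFY* were listed at 0. The part of these cell types in the other results was not tested.

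Pigment and wall genes gave mixed calls, beside 1.8% of all genes tested called higher and 0.617% called lower. Of 12 anthocyanin and flavonoid genes tested, 3 were higher DEGs, namely *TT8*, a bHLH activator of anthocyanin genes (2.4), *GSTF12*, which carries anthocyanin to the vacuole (1.88), and AT4G14090, an anthocyanin glucosyltransferase (1.16). *GSTF12* had 621, 632 and 397 against 237, 169 and 77.2. *FLS1*, the enzyme of flavonol synthesis, was lower, at 97.4, 131 and 161 against 257, 261 and 271 (-1.04, adjusted p = 0.0307), and the call was held in 1 of the 7 fits. *F3H*, an earlier enzyme of the same route, is listed at 0 in these samples. Of 14 expansin genes, whose products loosen the cell wall, *EXPA1* (1.05), *EXPA3* (1.65), *EXPA8* (2.93) and *EXPA10* (2.18) were higher and *EXLA3* (-2.21) lower. *EXPA8* had 232, 224 and 439 against 37.1, 28.4 and 45.3, and WT had 422, 243 and 267. Without *GC::AtTOR* replicate 3, *EXPA8* was the only expansin called. In smaller numbers, *HSP18.2*, a small heat shock protein (1.47), and the senescence genes *SAG13* (2.84, with groups that overlapped) and *SAG21* (1.28) were higher, and *PS2*, a phosphate-starvation pyrophosphatase, was lower (-1.68), none of them with replicates 1 and 2 averaged. Of the 38 lists 21 had no DEG.

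The same contrast was then read in the drought and re-watered samples, whose levels do not enter the well-watered fold changes. They do enter the shared estimate of the spread behind the well-watered calls, and with the 6 well-watered samples fitted alone 230 genes were higher and 78 lower. Few of the well-watered DEGs were called in the same direction there. Still, in both treatments and in either direction, a larger share of them was called than of all genes. Of the 320 higher DEGs, 11 were also higher in *GC::AtTOR* under drought, where 1.06% of all genes were, and 38 were lower, where 4.78% of all genes were. After re-watering, 25 were higher, beside 2.41% of all genes, and 37 lower, beside 1.75%. Their median log2 fold change was -0.29 under drought and -0.11 after re-watering. Of the 110 lower DEGs, 8 were lower and 16 higher under drought, and 7 lower and 5 higher after re-watering, with medians of 0.11 and -0.04. The re-watered counts include a shallow *35S::AtTOR* library, replicate 1, of 2739872 reads. Without it 15 of the 320 were higher and 33 lower, beside 1.81% and 1.44% of all genes, and 3 of the 110 were lower and 3 higher. The counts under drought also moved with single samples, from 15 to 55 for the 38 and from 4 to 24 for the 16, with the lowest of each without *GC::AtTOR* drought replicate 3 and, for the 16, also without *35S::AtTOR* drought replicate 1.

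The change of the contrast between treatments was tested as an interaction, which shares the well-watered samples with the choice of DEGs. Under drought against well-watered, 213 of the 320 higher DEGs had an interaction called downwards, where 5.6% of all genes did, and 67 of the 110 lower DEGs one called upwards, where 1.8% did. For re-watered against well-watered these were 183, beside 3.1%, and 57, beside 2.31%. Since the DEGs were selected in the well-watered samples, these counts are a description.

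Named genes show the turn in the samples of the other treatments. Under drought *RAB18* stood at 38312, 76487 and 175998 normalized counts in *GC::AtTOR*, against 12943, 15174 and 44870, so that it was higher in *GC::AtTOR* there (1.96, adjusted p = 0.00983, a call held in 3 of 6 fits with a drought sample left out), and *RD29B* at 12446, 20243 and 35828 against 6084, 5068 and 15593, which was not called (1.41, adjusted p = 0.0824). In both genes the groups overlapped under drought and every sample was above every well-watered sample. *PR4* stood at 1.17, 0.817 and 0.975 in *GC::AtTOR* under drought against 2.87, 18.5 and 10.6 (-2.27, adjusted p = 0.00416). Each of these *GC::AtTOR* values is 1 read, so the drought call was made at the floor of the counts. After re-watering *PR4* stood at 896, 760 and 660 against 835, 567 and 983, where the groups overlapped (-0.02, adjusted p = 0.985). *JAL23* was lower in *GC::AtTOR* in both other treatments, with 7.04, 0.817 and 9.75 against 52.6, 55.6 and 30.3 under drought and 103, 272 and 190 against 3943, 6449 and 1789 after re-watering. *MBP1* after re-watering stood at 1221, 2892 and 2323 against 10725, 18941 and 6213 (-2.42, adjusted p = 0.000438). Of the 9 jasmonate-induced defence genes, 7 were lower after re-watering and 1 under drought, and none was higher in either. Of the 12 anthocyanin genes, 10 were lower after re-watering, while under drought 4 were higher, as *GC::AtTOR* minus *35S::AtTOR*, and none lower. Over all genes, 1.75% were lower after re-watering, and 4.78% were lower and 1.06% higher under drought. The suberin genes were near 0 in both lines under drought. After re-watering *CYP86A1* had 0, 35.8 and 18.5 in *GC::AtTOR*, against 74.4, 61.2 and 38.9, and was not called (adjusted p = 0.0924).

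Only 5 genes differed between the constructs in the same direction in all 3 treatments by the DEG rule. *TOR* had log2 fold changes of -3.34, -3.33 and -3.37 in well-watered, drought and re-watered leaves. AT3G58480, a calmodulin-binding family gene on chromosome 3, had 0.965, 2.39 and 7.67 normalized counts in well-watered *GC::AtTOR*, 203, 124 and 161 in *35S::AtTOR* and 6.1, 5.84 and 1.69 in WT (-5.37, adjusted p = 2.64e-06). Re-watered *35S::AtTOR* leaves had 649, 1469 and 897 of it, while those of *GC::AtTOR* had 0.972, 2.69 and 1.03. *QQS*, an orphan gene that affects starch content, had 309, 324 and 406 against 51.2, 64.3 and 68.3 (2.48, adjusted p = 1.33e-05) and was higher by 2.48 and 1.89 in the other treatments. The last were the non-coding RNA genes AT2G06995 (2.7, 2.4 and 5.52) and AT3G05945 (1.09, 1.8 and 1.36). In well-watered leaves each of the 5 was called in all 7 fits, and the groups of none of them overlapped.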

How the data were processed

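RNA was extracted from leaves, and libraries made with an Illumina TruSeq kit were sequenced as paired ends on a NovaSeq instrument. Per the labels and the study's methods, the authors used Trimmomatic for trimming, STAR for alignment to TAIR10, and Salmon for quantification, and divided the counts by DESeq2 size factors. These normalized counts, a signal per gene without a length correction, were deposited. Tool versions are not given in the sources used here. Multiplied by a factor per sample, 100% of the values in every sample came out whole within 0.0001 reads, so depth could be recovered; 8784 genes were 0 in all 27 samples.

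The main test was limma 3.58.1 (R 4.3.3, eBayes with trend) on log2(normalized count + 1), in 1 model of the 9 groups of genotype and treatment with 18 residual degrees of freedom. Adding 1 understates the change of genes with low counts. Genes needed a mean of at least 10 normalized counts in either well-watered transgenic group. Adjusted p-values of the main fit are Benjamini-Hochberg over all 17819 genes, for every contrast, and all adjusted p-values in the text are limma's. Fits with a well-watered sample left out or averaged applied the count minimum anew and adjusted over the genes it kept. These were 17781 without *GC::AtTOR* replicate 3 and 17841 with replicates 1 and 2 averaged. Groups come from the sample labels, and the drought, re-watered and interaction contrasts come from the same fit. edgeR 4.0.16 (quasi-likelihood) and DESeq2 1.42.0 were run on the recovered reads as alternatives, among 23 alternatives in all, and the scripts were tested on simulated data. Fits that leave out 1 sample of a group keep the shared estimate of the spread.

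Genes named are *TOR*, members of 38 gene lists, and DEGs whose groups did not overlap and whose higher group averaged 100 or more normalized counts, 15 from each end of their log2 fold changes. Other genes were chosen after their values were seen, namely the suberin, wax and root lists, *JAL23*, and the genes called in all 3 treatments. The comparison and the lists were chosen with earlier results of these data known. Of the 478 list entries, 465 matched the reference names (TAIR10.1) by symbol and 13 by locus. Whether counting used strand is not given in the sources used here, so overlapping genes may share reads.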

Additional observations from a re-analysis of the deposited data

Results flagged for a closer look

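The difference between the constructs changed between water treatments for many named genes, by an interaction test in limma. Because the genes were called in the well-watered samples, which the interaction shares, only those that were also called in the opposite direction in the other treatment's own samples are given here. Each value is the log2 fold change, *GC::AtTOR* minus *35S::AtTOR*, in the other treatment minus that in well-watered leaves, and the largest adjusted p among them is 0.0045.

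Under drought, genes that were higher in *GC::AtTOR* in well-watered leaves and lower in it under drought were AT3G16530 (-6.38), AT1G15125 (-5.85), AT1G66100 (-6.89), *PR4* (-5.88), AT1G14250 (-6.74), *BAP1* (-3.0), *LHCB2.3* (-4.73), *PSAN* (-2.13), *EXPA8* (-5.74) and *JAL23* (-5.60). They hold genes of defence, such as the chitin-binding *PR4* and the thionin AT1G66100, and antenna and photosystem genes. Drought values of *PR4* in *GC::AtTOR* were at the floor of the counts. Genes that were lower in well-watered leaves and higher under drought were *LTP3* (4.48), AT4G33550 (3.52), *RAB18* (4.16), *MGL* (3.17), *FLS1* (3.30) and *PS2* (3.32), among them the lipid transfer protein *LTP3*, the dehydrin *RAB18* and the flavonol synthase *FLS1*.

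After re-watering, genes that turned from higher to lower in *GC::AtTOR* were *PDF1.2* (-8.59), *GSTU4* (-5.99), *NATA1* (-7.51), *BGLU18* (-4.86), *MBP1* (-4.30), *MBP2* (-6.97), *JR1* (-4.75), *ALD1* (-5.04), AT4G14090 (-3.88), *TT8* (-5.31), *GSTF12* (-4.21) and *JAL23* (-6.86). They are mostly genes of jasmonate-linked defence and of anthocyanin synthesis. Only genes named in the text were searched in either treatment, so these themes follow from the lists used. Genes that turned from lower to higher were *CER1* (3.24), *CYP707A1* (2.05) and *EXLA3* (4.35).

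The opposite call held with each of the 6 samples of the other treatment left out in turn for AT1G15125, AT1G66100, *PR4*, *GSTU4*, *NATA1*, *BGLU18*, *MBP1*, *MBP2*, *JR1*, *ALD1*, *LHCB2.3*, AT4G14090, *TT8*, *FLS1*, *GSTF12*, *EXPA8*, *JAL23*. It was lost in at least 1 of these fits for *PDF1.2*, AT3G16530, AT1G14250, *LTP3*, AT4G33550, *RAB18*, *CER1*, *MGL*, *CYP707A1*, *BAP1*, *PSAN*, *EXLA3*, *PS2*. Without the shallow re-watered *35S::AtTOR* replicate 1, *PDF1.2* (adjusted p = 0.061) and *EXLA3* (adjusted p = 0.061) were no longer called after re-watering, and *CYP707A1* had a log2 fold change of 0.98.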

How the results depend on the processing

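The counts of 320 higher and 110 lower DEGs moved most with the thresholds and with single samples. With a mean of at least 50 they were 187 and 66, with an adjusted p under 0.01 they were 125 and 50, and with no floor on the fold change 673 and 719. With *GC::AtTOR* replicates 1 and 2 averaged, an alternative chosen after seeing the data, they were 140 and 54. With 1 of the 6 samples left out, higher DEGs ranged from 138 (without *35S::AtTOR* replicate 3) to 354 (without *GC::AtTOR* replicate 3) and lower DEGs from 60 (without *GC::AtTOR* replicate 1) to 201 (without *GC::AtTOR* replicate 3); without *GC::AtTOR* replicate 2 they were 141 and 62. edgeR called 366 and 119 and DESeq2 416 and 118. Scaling samples to equal totals moved the median of all genes to -0.0893 and gave 291 higher and 161 lower.

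Deviations of same-numbered samples of the lines had weak positive correlations (0.11, 0.07 and 0.17). Pairs with different numbers had -0.17 to 0.07. As the correlations were weak, the numbers were not taken to pair the samples. The fit with the replicate number as a block gave 323 higher and 112 lower DEGs, and the fit with the library number as a block 272 and 99.

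The counts of well-watered DEGs read in the other treatments were recomputed with each of those samples left out, also after seeing the data. Of the higher DEGs, 6 to 17 were higher and 15 to 55 lower under drought, and 9 to 32 higher and 24 to 40 lower after re-watering. Of the lower DEGs, 4 to 24 were higher and 4 to 9 lower under drought, and 2 to 6 higher and 3 to 9 lower after re-watering. The 38 became 17 without *35S::AtTOR* drought replicate 2 and 24 without *GC::AtTOR* drought replicate 2, and the 16 became 4 without *35S::AtTOR* drought replicate 1. The causes were not tested.

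For 83 genes of the text, leaving out 1 sample kept the call or its absence in 345 of 497 recalculations and ended it in 150, and the other alternatives kept it in 1264 of 1398 and ended it in 130. No direction of a gene reversed. Genes under about 10 counts, as in the suberin list, are limited by depth.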
